A study of Caenorhabditis elegans with 2 samples.

Results

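Occupancy of 10 heterochronic genes of Caenorhabditis elegans was described from chromatin immunoprecipitation followed by sequencing (ChIP-seq) of the BTB-domain protein F10B5.3. Heterochronic genes time the fates that cells adopt in successive larval stages. The members were a list given by name, lin-14, lin-28, hbl-1, lin-46, lin-66, lin-29, lin-41, lin-42, ain-1 and nhl-2, and each was found once by gene name among the 19985 protein-coding genes of the Ensembl annotation. Every animal was of strain OP529, in which the unc-119(tm4063) III mutation is combined with the integrated transgene wgIs529. That transgene supplies F10B5.3 fused at its C-terminus to GFP and FLAG, and the antibody was directed against GFP. Hermaphrodites were collected as L4 larvae, 48 hours after starved L1 larvae hatched from bleached cultures were synchronized, in 2 biological replicates. There was no second genotype, stage or treatment. Whole animals were used, so a call that is strong in a few cells cannot be told apart from one that is weak in many. The tagged copy was made by 1 transgenic line, and the labels do not name the promoter that drives it.

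In this pathway, early larval fates are held in place by the transcription factors LIN-14 and HBL-1 and by the RNA-binding protein LIN-28. The microRNAs lin-4, let-7 and the relatives of let-7 silence these genes as larvae grow. Repression of lin-41 by let-7 and the rise of LIN-29 then mark the switch to adult fates in the skin, which takes place from L4 onwards. MicroRNAs act through an Argonaute complex, and proteins such as AIN-1 and NHL-2 help that complex to silence its targets.

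A call is a region deposited by the authors' peak caller, and its summit is the base the caller placed at its highest point. Calls come from a permissive list for each replicate, with 22211 calls in replicate 1 and 27642 in replicate 2, and a permissive list of 30000 calls from both alignments pooled. The 862 calls that passed the authors' irreproducible discovery rate (IDR) analysis are called IDR peaks here. They were the 862 pooled calls of highest signal, with signals of 86.5 and above. The signal is the caller's own value, and no source used here gives its scale. A call was assigned to a gene when its summit lay in the gene body or within 2000 bp of it. All coordinates are ce11, the same assembly as WBcel235, and signals are from the pooled list unless a replicate is named. Read depth was not used here, so no counting error can be attached to a signal. The replicate values given beside each call are the only measure of its error.

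The sequences around the pooled summits of the IDR peaks at members are shown, except that of lin-41. Each window spans 101 bp around the pooled summit on the forward strand of the reference genome (NCBI RefSeq, WBcel235). At the lin-42 exon summit the nearest replicate 1 summit lay 182 bp away, outside the window. At the distal ain-1 summit the nearest replicate 2 summit lay 127 bp away, also outside. Capitals mark a GAGAGA match on either strand, or both arms of an imperfect inverted repeat, TTGGC and GCCA spaced by 5 bases. The windows lie at chrIII:4899882-4899982 (nhl-2), chrX:16612427-16612527 and chrX:16612630-16612730 (ain-1), chrIV:13887587-13887687 (lin-66), and chrII:1246979-1247079 and chrII:1239635-1239735 (lin-42).
nhl-2 upstream: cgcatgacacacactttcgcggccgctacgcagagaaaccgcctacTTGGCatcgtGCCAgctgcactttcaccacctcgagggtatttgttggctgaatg
ain-1 upstream, distal summit: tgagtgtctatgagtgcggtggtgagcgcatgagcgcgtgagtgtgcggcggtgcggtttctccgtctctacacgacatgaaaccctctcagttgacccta
ain-1 upstream, proximal summit: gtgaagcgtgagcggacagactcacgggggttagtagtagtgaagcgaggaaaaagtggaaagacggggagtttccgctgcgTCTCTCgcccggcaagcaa
lin-66 upstream: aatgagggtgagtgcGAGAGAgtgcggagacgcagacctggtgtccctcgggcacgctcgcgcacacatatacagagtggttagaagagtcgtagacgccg
lin-42 intron: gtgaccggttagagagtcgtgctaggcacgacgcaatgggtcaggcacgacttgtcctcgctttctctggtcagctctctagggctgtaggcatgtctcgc
lin-42 coding exon: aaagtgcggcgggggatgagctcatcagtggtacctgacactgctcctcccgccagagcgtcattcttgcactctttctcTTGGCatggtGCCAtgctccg

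These windows were rich in G and C. The GC content of the 7 member windows, lin-41 included, ran from 54.5% at lin-41 to 59.4% at lin-66. All 7 were above the upper quartile of the 839 nuclear IDR windows, 53.5%, whose median was 48.5%. The 94 other pooled calls at members had a median of 38.6%, close to the 37.6% of all 29138 nuclear pooled calls outside the IDR set. GAGAGA was found at lin-66 and at the proximal ain-1 summit. It was in 22.2% of nuclear IDR windows and 7.63% of the other nuclear windows. The other motifs searched on both strands had no match in the 7 member windows. In the nuclear IDR windows and the other nuclear windows, TATAAA was in 6.67% and 13.2%, CACGTG in 3.10% and 2.20%, and TGATAA in 4.05% and 8.38%. Likewise GGGCGG was in 7.51% and 2.77%, and GGTTCGA in 4.53% and 1.05%. A match is only a run of letters, and its absence says nothing of any factor. The spaced TTGGC and GCCA arms were noticed when the member sequences were read, and were then counted, so they have no test. They began 4 bp before the pooled nhl-2 summit and 30 bp after the pooled lin-42 exon summit on the forward strand. In all they were in 14 of 839 nuclear IDR windows (1.67%) and 0.223% of the others. No 31 bp stretch of the 7 member windows occurred elsewhere in the genome.

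Of the 10 members, 5 had an IDR peak in the window (50%), and together they held 7. They were both cofactors of microRNA silencing, nhl-2 and ain-1, the late genes lin-42 and lin-41, and the early gene lin-66. The pair of IDR peaks at ain-1 overlap, so the 7 peaks are not all separate regions. Over all protein-coding genes 6.64% had an IDR peak in the same window. Long genes collect more calls, and the members are long, with a median window of 9761 bp against 6026 bp over all genes. Among the 2536 genes with a window of at least the members' median, 10.6% had an IDR peak. Within 1000 bp of one of their own transcription start sites (TSSs), 4 members had an IDR summit, against 3.38% of all genes. With the 862 strongest calls of each replicate in place of the IDR set, 4 members had one in replicate 1 (6.56% of all genes) and 5 in replicate 2 (6.73% of all genes). Genes are not replicates and the members were chosen with earlier results of these data known, so these shares are a description without a test.

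**Figure D1:**
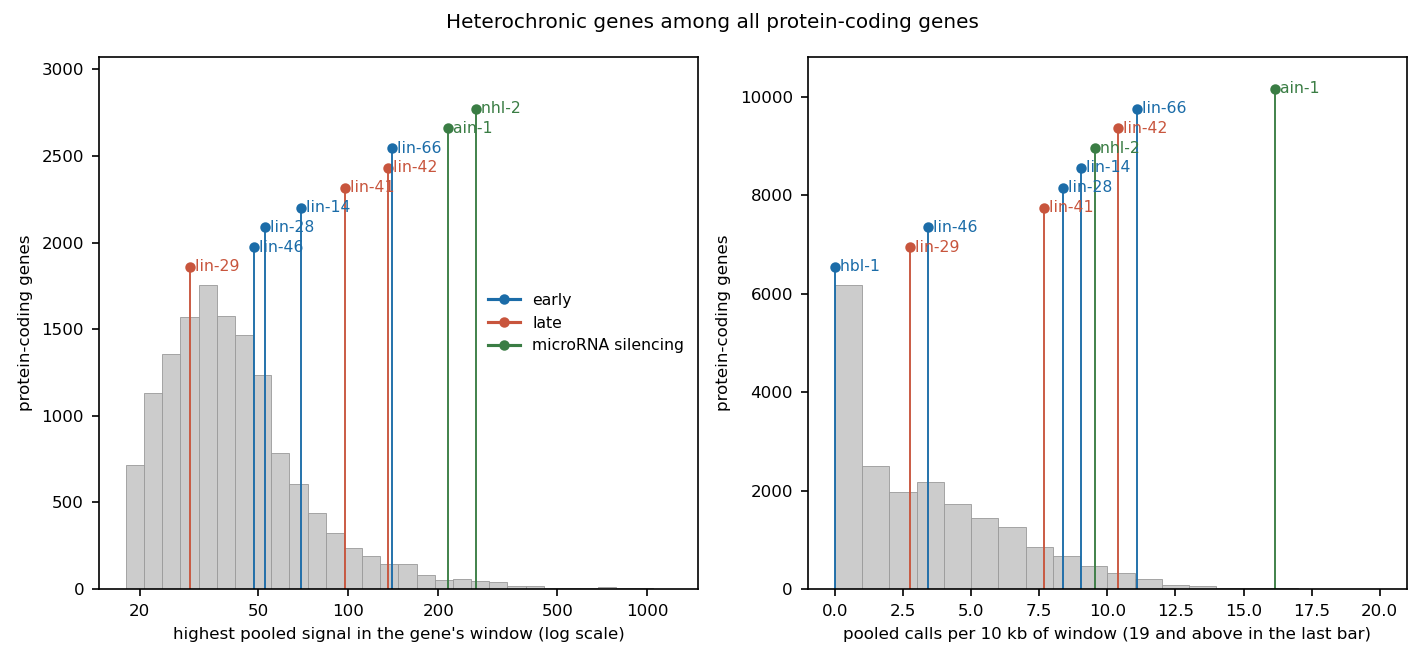
Histograms over all protein-coding genes (gray bars) of the highest pooled signal in the gene's window (left, logarithmic axis; nuclear genes with a pooled call) and of pooled calls per 10 kb of window (right), with members marked by coloured lines whose heights only separate the names. The highest signals of nhl-2 and ain-1 lie far to the right at 268 and 215, lin-29 lies below the median of 37.9, and hbl-1, with 0 pooled calls, appears in the right panel only.

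The early group joined lin-14, lin-28 and hbl-1 with lin-46 and lin-66, which lower the activity of lin-28 and its pathway. The early genes had 1 IDR peak among 5 members, at lin-66. The late genes had 3 peaks at 2 of 3 members, and the silencing cofactors 3 peaks at 2 of 2. Pooled calls of any strength numbered 41 at early genes, 39 at late genes and 21 at silencing cofactors. Per length of window these were 7.21, 6.90 and 12.5 calls per 10 kb. Overlapping calls were counted separately in these counts and densities. All calls at ain-1, a silencing cofactor, overlapped another, and its pair of IDR peaks overlapped each other. The counts and densities therefore do not compare the groups by separate regions. The median over single protein-coding genes was 2.58 calls per 10 kb, with quartiles of 0 and 5.31. The median signal of all pooled calls was 30.7 at early genes, 34.1 at late genes and 43.1 at silencing cofactors, against 27.6 for the pooled list. The groups overlapped: the early gene lin-66 had a higher peak, 139, than the late genes lin-42 and lin-41. With 5, 3 and 2 members, no difference between the groups can be separated from the spread among their members.

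Both silencing cofactors carried the strongest calls among the members, and these lay upstream of the genes. The gene nhl-2 (III:4893658-4899085, reverse strand) encodes a TRIM-NHL protein that acts with the microRNA complex. Its peak at III:4899818-4900042 had a signal of 268, rank 101 of 30000, with 102 in replicate 1 and 164 in replicate 2. The replicate summits lay 4 bp and 3 bp from the pooled one, and ranked 125 and 92 in their lists. The summit was 847 bp upstream of the nhl-2 TSS. It was nearer to the divergent gene tag-340, 576 bp upstream of that TSS, and within 200 bp of the ncRNA gene F26F4.14. Which of these genes the peak belongs to cannot be told apart from position. The next strongest call in the nhl-2 window, 56.2, lay past the 3′ end, 17 bp from the TSS of the neighbour F26F4.6. Of the 9 pooled calls at nhl-2, 8 had the TSS of another gene nearest.

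The gene ain-1 (X:16613451-16616871, forward strand) encodes a homologue of GW182, which binds Argonaute and recruits silencing enzymes. Its region X:16612252-16612701 held a pair of IDR summits. The distal one, 974 bp upstream of the TSS, had a signal of 215 and rank 149. The proximal one, 771 bp upstream, had a signal of 127, rank 402 and a width of only 130 bp. Replicate 1 also had a pair of summits, with signals of 100 at 923 bp and 33.7 at 721 bp upstream. Replicate 2 had 1 strong summit between the pooled ones, 847 bp upstream with a signal of 121, and a weak one of 18.2 at 648 bp upstream. Both replicates therefore placed a strong call upstream of ain-1, and they differed in where in that region the summit lay. The strong summit of replicate 2 was 127 bp from the distal pooled summit and 76 bp from the proximal one. Of all members, ain-1 had the densest calls, 12 in 7421 bp or 16.2 per 10 kb, a density that exceeded those of 99.9% of protein-coding genes. Each of these calls overlapped another one, and all were counted separately. A density of merged regions was not computed for any gene, so this ranking is for single calls only. The ain-1 calls included a coding exon call of 63.8, with 46.1 at 17 bp in replicate 2 and no summit within 1000 bp in replicate 1. A pair of calls of 44.5 and 42.0 past the 3′ end each lay within 200 bp of a tRNA gene.

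The early gene lin-66 (IV:13888079-13893986, forward strand) lowers lin-28 activity at the passage from early to late larval fates. The pooled signal was 139 (rank 327) at IV:13887412-13887861, with 50.1 in replicate 1 and 87.9 in replicate 2. The replicate summits were 32 bp and 11 bp from the pooled one, at ranks 572 and 288, inside the strongest 862 of each list. The summit lay 442 bp upstream of the first TSS, 452 bp from the second and 4038 bp from the third, which starts inside the gene. No other protein-coding TSS was nearer, and no ncRNA gene was within 200 bp. Along the gene the other 10 pooled calls had signals from 19.9 to 63.0, the highest in a coding exon 717 bp upstream of the internal TSS. Among them, the calls of 47.5, 41.0, 35.4, 24.8 and 21.8 each lay within 200 bp of a piRNA gene.

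The late gene lin-42 (II:1233236-1252359, reverse strand) is the worm homologue of Period and acts in the larva-to-adult switch and in moulting. It had 24 pooled calls, the most of any member, at 10.4 per 10 kb, and 5 annotated start sites. Both of its IDR peaks were inside the gene, whereas those of the other 4 members were upstream. The stronger, at II:1246804-1247253, had a signal of 136 and rank 346, with 59.1 in replicate 1 and 76.4 in replicate 2. Its summit was in an intron, 5330 bp after the first start site, F47F6.1d.1, and 2994 bp before the second, F47F6.1b.1. The replicates placed it within 7 bp and 0 bp of the pooled summit. The ncRNA genes F47F6.13 and F47F6.15 lay within 200 bp of it.

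The weaker lin-42 peak, at II:1239460-1239909, was at the edge of the IDR set. Its signal was 87.2 at rank 848, and the lowest IDR signal was 86.5. In replicate 2 a summit with 68.5 lay 3 bp away, while the nearest summit of replicate 1, with 33.3, lay 182 bp away. The summit was in a coding exon, 416 bp after the start site of F47F6.1e.1. The authors' ce10 IDR list held 843 peaks with a lowest signal of 87.3. The ce10 pooled list had 1 call like this one on the same chromosome (same width and summit offset, signal within 0.1%), with a signal of 87.2, and the ce10 IDR list had 0. The other 6 IDR peaks at members each had 1 such counterpart in the ce10 IDR list. In replicate 2 a further lin-42 call of 54.0, in an intron 9755 bp after the first start site, was among the strongest 862. The pooled call there had 68.0 and replicate 1 had 19.1.

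The late gene lin-41 (9334800-9342496 on chromosome I, reverse strand) encodes a TRIM-NHL RNA-binding protein and is a main target of let-7. Its IDR peak had the summit at position 9343937, 1441 bp upstream of the first TSS and 2018 bp upstream of the second. The signal was 97.7 at rank 671, with 34.1 in replicate 1 and 65.4 in replicate 2. Both replicate summits lay close by, 2 bp and 15 bp away. Its rank was 518 in replicate 2 but 1524 in replicate 1, outside the strongest 862 of that list. The remaining 8 pooled calls had signals from 21.1 to 40.6.

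**Figure D2:**
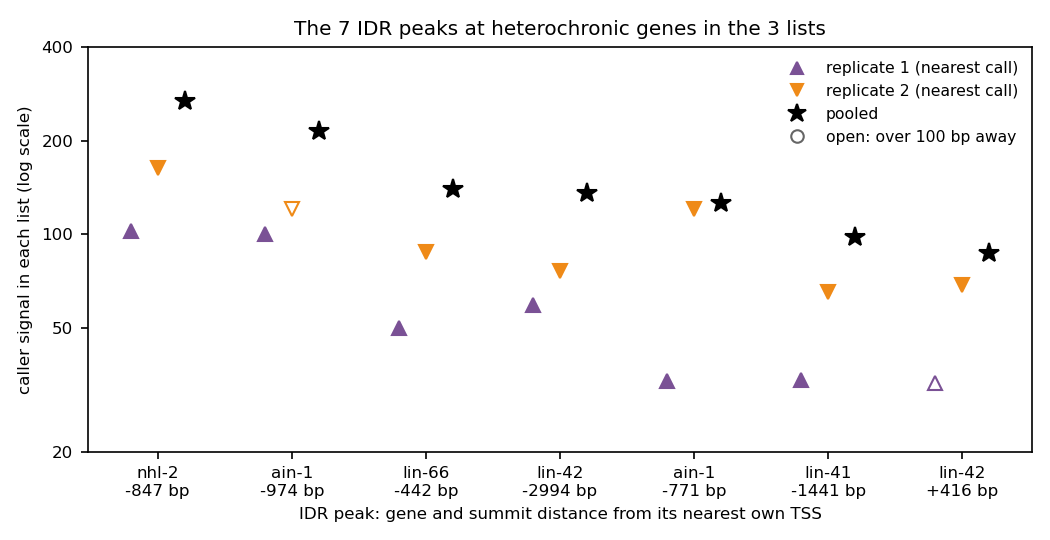
Caller signal (logarithmic axis) of the 7 IDR peaks at members in the pooled list (stars) and of the nearest call in replicate 1 (upward triangles) and replicate 2 (downward triangles); open symbols mark a summit over 100 bp away. The distal ain-1 peak is open in replicate 2 and the weaker lin-42 peak in replicate 1, and both ain-1 peaks share 1 call of 121 in replicate 2.

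The late gene lin-29 (II:11917642-11935343, reverse strand) encodes the zinc finger factor that triggers adult fates. Its calls were sparser and weaker than those of most other members, and close in density to the typical gene. Its 6 pooled calls in 21702 bp, 2.76 per 10 kb, had signals from 18.6 to 29.5, and 51.4% of protein-coding genes had fewer calls per 10 kb. The highest was in an intron, at rank 12957. Among the 14034 protein-coding genes with a pooled call, 28.3% had a lower highest signal. In the replicates the highest calls were 22.7 in replicate 1 and 23.1 in replicate 2, at different places: an intron and the 3′ UTR. The nearest IDR peak was 25491 bp upstream of the gene body.

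The early genes other than lin-66 had no IDR peak, and they differed widely among themselves. The gene lin-14 (X:11465560-11485871, forward strand) encodes the transcription factor that sets the earliest fates and is the classic lin-4 target. It had 22 pooled calls, of which 17 were in introns, with signals from 18.5 to 69.3 and 9.05 per 10 kb. The highest, 1927 bp into the gene and within 200 bp of the ncRNA gene T25C12.7, had 36.1 in replicate 1 and 29.95 in replicate 2. The next, 210 bp upstream of the first TSS and within 200 bp of the ncRNA genes T25C12.8 and T25C12.9, had 64.3 in the pool, 35.4 in replicate 1 and 24.2 in replicate 2. Both of these calls were matched within 11 bp in both replicates, at pooled ranks of 1383 and 1638. A call in the 3′ UTR, which holds the microRNA sites, had a signal of 40.9 and lay within 200 bp of the snoRNA gene T25C12.12.

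The gene lin-28 (8407630-8410804 on chromosome I, reverse strand) encodes the RNA-binding protein that blocks let-7 maturation. Its 6 pooled calls had signals from 21.9 to 52.7. The highest lay 3 bp past the 3′ end, 799 bp into the neighbour F02E9.1. The nearest replicate summits had 20.8 in replicate 1, inside the lin-28 3′ UTR, and 22.6 in replicate 2, 36 bp past the 3′ end. Replicate 1 also had a stronger call of 28.2, 142 bp past the 3′ end. The next pooled call, in an intron 441 bp after a lin-28 start site, had 49.0 in the pool, 18.7 in replicate 1 and 26.1 in replicate 2. The gene lin-46 (V:12968855-12970730, forward strand) encodes a gephyrin-like protein that acts downstream of LIN-28. It had 2 pooled calls, both upstream and both nearer to the TSS of R186.8, of 48.4 and 29.5. For the stronger one replicate 1 had 27.9 at 2 bp, and replicate 2 had 16.6 at 69 bp.

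The gene hbl-1 (X:5822142-5827755, forward strand) encodes the Hunchback-like zinc finger factor of the early stages. It had 0 pooled calls in its window of 9614 bp, as did 29.8% of protein-coding genes. The replicate lists did hold calls there, 12.9 and 19.7 in replicate 1 and 28.9 in replicate 2, the last at rank 4133 of 27642. All of these lay in coding exons, at 3 different places. The nearest pooled call was 9749 bp upstream of the gene body, and the nearest IDR peak, of 114, was 9955 bp upstream with F13D11.3 the nearest TSS. The lowest signal in the pooled list was 18.4, so weaker recovery at hbl-1 would not be listed. Why the replicate calls had no pooled counterpart was not tested.

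**Figure D3:**
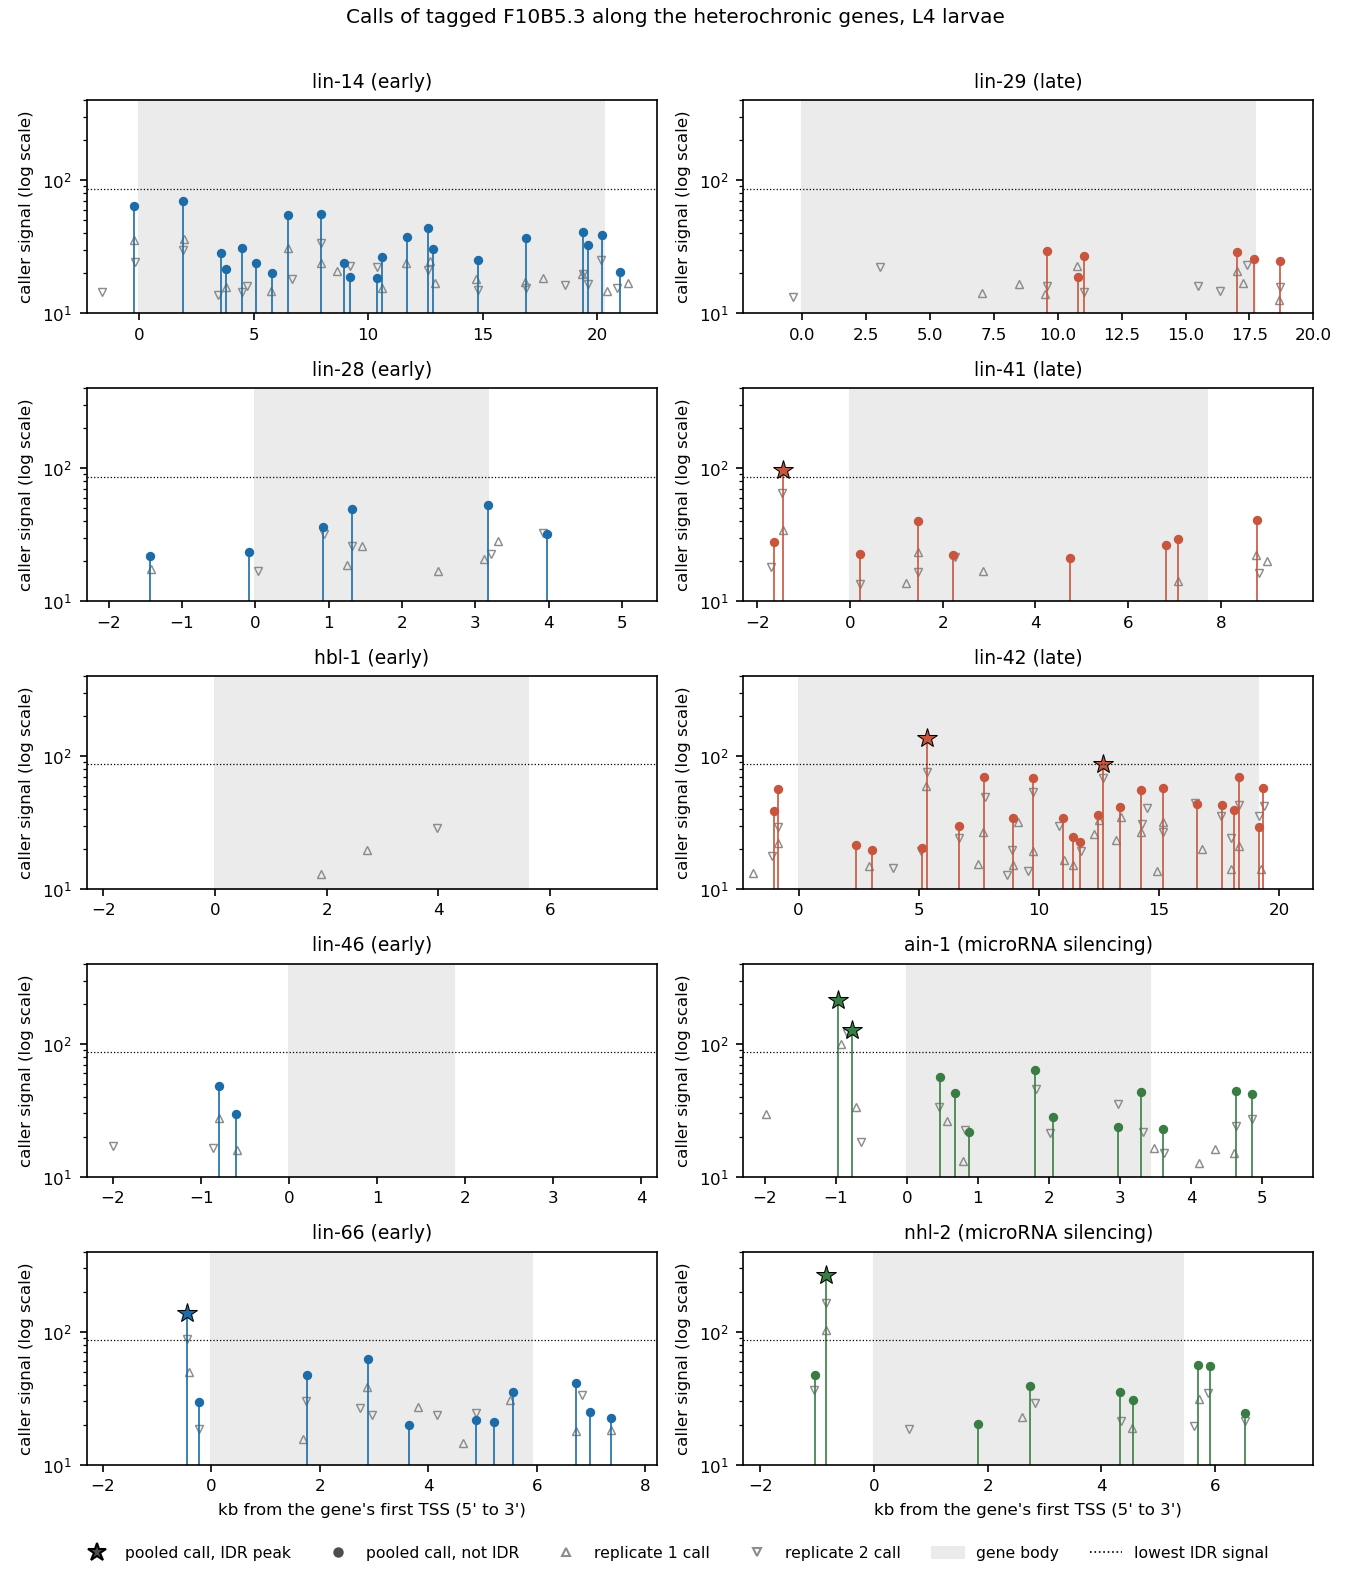
Caller signal (logarithmic axis) of every call in each member's window against the distance of its summit from the gene's first TSS in kb, with pooled calls as coloured dots, IDR peaks as stars, replicate calls as open gray triangles, gene bodies shaded and the lowest IDR signal of 86.5 dotted. Strong peaks sit upstream of nhl-2, ain-1, lin-66 and lin-41 and inside lin-42, while lin-14, lin-28, lin-29 and lin-46 stay below the dotted line and hbl-1 has replicate calls only.

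Of the 101 pooled calls, 39 were in introns, 16 downstream, 15 upstream, 15 in coding exons, 15 in 3′ UTRs and 1 in a 5′ UTR. Of the 7 IDR peaks 5 were upstream, 1 was in an intron and 1 in a coding exon. Nearness to a start site was general to the IDR set, whose nuclear peaks had a median distance of 594 bp to the nearest protein-coding TSS. The highest signal was 69.1 in a 3′ UTR, at lin-42, and 57.7 downstream, also at lin-42. IDR peaks made up 6.93% of the pooled calls at members, against 2.87% of the whole pooled list. Overlapping calls were counted separately in both shares. Among the 94 member calls outside the IDR set the highest signal was 69.6, so no member call lay just below the IDR limit. Some of the weak calls are neighbours of a stronger one, since calls were mostly 450 bp wide and could overlap. Merging overlapping calls left 69 regions, and densities by gene or group were not computed from merged regions.

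**Figure D4:**
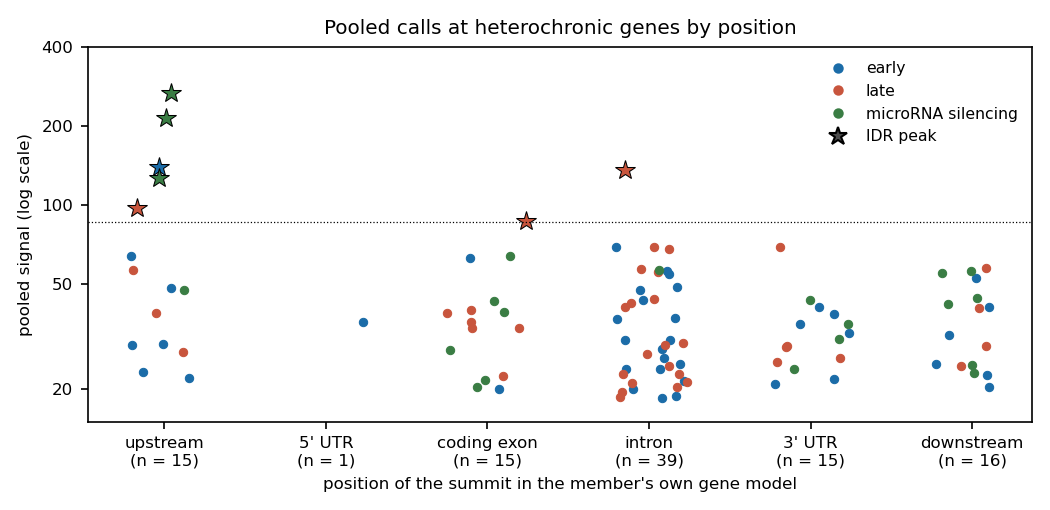
Pooled signal (logarithmic axis) of the 101 pooled calls at members by the position of the summit in the member's own gene model, coloured by role, with IDR peaks as stars and the lowest IDR signal dotted; horizontal scatter within a column only separates points. The star symbols are in the upstream column apart from those of lin-42, and no call in a 3′ UTR or downstream of a gene exceeds 69.1.

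The weaker calls repeated only in part. Of the 101 pooled calls at members, 31 (30.7%) had a summit within 100 bp in both replicate lists, against 21.2% of the pooled list. A further 20 were matched in replicate 1 only, 34 in replicate 2 only and 16 in neither. The median signal was 34.2 over the pooled calls at members and 27.6 over the pooled list. Whether this bears on the shares matched was not tested. The count matched in both was 12 of 41 at early genes, 14 of 39 at late genes and 5 of 21 at silencing cofactors. Among the IDR peaks at members 5 of 7 were matched in both, and 808 of all 862 (93.7%). The pair that was not comprised the distal ain-1 summit and the lin-42 exon summit. The edge of the window mattered at ain-1 and lin-46. At ain-1 a pooled call of 67.8 lay 2002 bp upstream of the gene body, just outside, with 37.4 at 2001 bp in replicate 2. Replicate 1 placed its summit there at 1987 bp with 29.6. At lin-46 a pooled call of 31.7 lay 2009 bp upstream of the gene body, with 14.3 at 2006 bp in replicate 1. Replicate 2 placed its summit there at 1997 bp with 16.9, just inside. Inside the windows the pooled summit farthest from a gene body was 1641 bp away, at lin-41, with a signal of 27.7.

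Further genes of the pathway were taken from a list of 28 names. That list was also chosen with earlier results of these data known, so its shares are a description without a test. Of these, let-7 and ntl-1 did not match the annotation by name, and no call was looked up for either. The 26 names that matched gave 9 genes with an IDR peak. Of the 21 that code for protein, 7 had one (33.3%), against 6.64% of all protein-coding genes and 10.6% of those with long windows. Their median window was 10687 bp. The other 2 were among 5 RNA genes, for which no background was computed. The highest, 167, was 277 bp upstream of puf-9, a Pumilio-family gene needed for the silencing of hbl-1. A peak of 128 lay 281 bp upstream of myrf-1, a membrane-bound transcription factor gene of moulting and of lin-4 activation. Another of 128 lay 409 bp upstream of the annotated lin-4 gene. The remaining peaks were at cgh-1, an RNA helicase gene (127), lep-2, a Makorin gene of male timing (108), and the nuclear receptor gene daf-12 (102). They were also at kin-20, a casein kinase gene (101), mir-241, a relative of let-7 (99.5), and myrf-2 (90.9). The cgh-1 summit was 1845 bp upstream of its TSS and the daf-12 summit 3642 bp after its nearest start site. Distances at these further genes are from the gene's own annotated start, and other genes near these peaks were not looked up. The other GW182-like gene, ain-2, had no IDR peak and a highest signal of 51.1, in contrast to ain-1. The genes of microRNA processing and loading dcr-1, drsh-1, pash-1, alg-1 and alg-2 had no IDR peak, with highest signals of 30.9, 70.5, 51.6, 78.4 and 50.1. The nuclear receptor genes nhr-23 and nhr-25 had 0 pooled calls, as hbl-1 did.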

How the data were processed

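The authors deposited narrowPeak lists whose signal values, in the seventh column, came from their peak caller run on each replicate alignment with a control file, and on both alignments pooled, per the notes deposited with the files. IDR analysis of these lists gave the thresholded set. No source used here gives the aligner, the caller, their versions or the IDR threshold. A signal orders calls within its list, and no signal was tested between lists.

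From these lists, summits were assigned to genes of Ensembl release 115 (WBcel235) with Python 3.11.15 and pandas 2.3.3. An IDR peak was a pooled call with the same coordinates and summit as a thresholded peak, and a match was a summit within 100 bp. Assignment was tested on simulated calls. Nothing was compared between conditions, and there was no test. Replicates were 2 libraries of 1 group. The ce10 lists were used without converting coordinates, and the ce10 replicate lists were not used here.

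All 10 members, their highest call and their IDR peaks are named, with further pathway genes that had an IDR peak. The members, roles, lists and motifs were chosen with earlier results of these data known.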

Additional observations from a re-analysis of the deposited data

How the results depend on the processing

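With the gene body only, 1 member had an IDR peak (lin-42) and 2 IDR peaks remained at members, with 0 early, 1 late and 0 silencing members, since the other 5 peaks lie upstream. Late members fell to 1 with the body plus 1000 bp and with 1000 bp around a TSS, which leave out lin-41, and also to 1 with the strongest 50% of the IDR peaks. Silencing members fell to 1 (ain-1) when a summit went only to its nearest TSS. Without replicate 1 or replicate 2, late members numbered 2 and 1, and strong calls at members 7 and 4. Without replicate 2, lin-41 lost its strong call and lin-42 and ain-1 kept 1 each; without replicate 1, lin-42 had 3 and ain-1 had 1. Calls matched in both replicates numbered 17 within 50 bp and 51 within 200 bp. In the other alternatives run, 4 or 5 members had an IDR peak, IDR peaks at members numbered 5 to 8 and pooled calls 69 to 134. Taking only as many calls as the ce10 IDR list holds, chosen after seeing the data, left 6 IDR peaks at the same 5 members. Of 26 values of a member's highest signal in other windows, 8 moved the value by more than the SD of the replicates' highest signals. That SD comes from the 2 replicate lists, where the highest calls can lie at different places. It is a yardstick and not the error of a pooled signal. No paired analysis was possible because the series holds 1 group. The 2 replicates and the unknown depth limit precision.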
